A study of Mus musculus with 9 samples.

Results

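Plk1, Kif4, Kif20a, Prc1 and Ccna2, 5 genes of cell division, were followed in mouse smooth muscle cells. Plk1 is the polo-like mitotic kinase, Kif4 and Kif20a are mitotic kinesins, Prc1 is a protein of the spindle midzone, and Ccna2 encodes cyclin A2. Each was measured through 1 row of the count table whose exons lie on the strand opposite to it: Gm44985 for Plk1, Pdzd11 for Kif4, Cdc23 for Kif20a, Rccd1 for Prc1 and Exosc9 for Ccna2. These are 5 of 53379 rows, and 5 of the 2444 genes that could be read in this way and passed the filter on low counts (filterByExpr in edgeR). All 5 passed. They were chosen by their log2 differences from control in these same libraries, Plk1, Prc1, Kif4 and Kif20a in DON and Ccna2 in DON plus glutamate, so their differences between groups are given as a description, without p-values.

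The cells were MOVAS, an immortalised line of mouse aortic smooth muscle labelled C57BL/6, grown with serum and geneticin. The 9 libraries form groups of 3: untreated control, 24 h of DON at 50 mM, and 24 h of DON at 50 mM with glutamate at 2 mM. DON (6-diazo-5-oxo-L-norleucine) resembles glutamine and inactivates enzymes that use it. Doses are as labelled, and glutamate means the compound so labelled, since its listed catalogue number may belong to a dipeptide of glutamine. MOVAS is 1 line, and nothing in the labels says whether the replicates were separate cultures, so every p-value rests on library-to-library spread that may be technical only. Libraries held 1132822 to 1342286 assigned counts, the fewest in DON plus glutamate replicate 3. Of 7 smooth muscle markers listed, 2 could be read, Tagln at a mean of 309.3 CPM (counts scaled to a common library size) and Smtn at 968.7 CPM. No endothelial, leukocyte or epithelial marker could be read on the opposite strand, and 1 of 4 fibroblast markers could (Pdgfra, 12.6 CPM).

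A dividing cell makes most of its mitotic machinery only in the later part of the cycle. Cyclin A2 pairs with cyclin-dependent kinases through S phase and G2, and is destroyed early in mitosis. Plk1 then drives mitotic entry, centrosome maturation and spindle assembly. At anaphase Prc1 bundles the antiparallel microtubules of the midzone, Kif4 travels with Prc1 and limits the length of these microtubules, and Kif20a (MKLP2) carries the chromosomal passenger complex to them, before the cell divides. Transcription of these genes is held down in quiescent cells and in G1 by the DREAM complex and is raised in G2 by B-MYB and FOXM1, through a short promoter element called the cell cycle homology region (CHR), often with CCAAT boxes bound by NF-Y. In bulk RNA, fewer cells in G2 and mitosis cannot be told apart from less of these transcripts per cell.

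The part of each gene that was counted differed (GENCODE M21 on mm10). Plk1 (chromosome 7, plus strand, 122159439 to 122169873) was counted in its inner part. Its row, an unconfirmed single-exon transcript model of 1016 bp, overlaps 156 bp of a coding exon. The rest of this row lies opposite introns of Plk1, so any unspliced Plk1 RNA there would be counted too. Prc1 (chromosome 7, plus strand, 80294450 to 80316259) shares 911 bp of exon with Rccd1 in 4 pieces, the longest of 670 bp at the end of Prc1. Only 14 of these 911 bp are coding. Kif4 (chromosome X, plus strand, 100625737 to 100727214) is overlapped over 832 bp at its beginning, where Pdzd11 runs away from it, of which 100 bp are coding. Kif20a (chromosome 18, plus strand, 34624613 to 34633277) ends opposite Cdc23 with 1271 bp of overlap, 606 bp of them coding. Ccna2 (chromosome 3, minus strand, 36564865 to 36572150) is overlapped by Exosc9 over 510 bp outside its coding exons, 353 bp before its end. The overlap made up 7.1% of the exonic bases of Plk1, 11.1% of Prc1, 12.5% of Ccna2, 15.1% of Kif4 and 29.3% of Kif20a. No other annotated gene on the same strand as any of the 5 shares these stretches. Outside them, parts of the Rccd1 and Cdc23 rows also lie opposite introns of Prc1 and Kif20a.

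**Figure D1:**
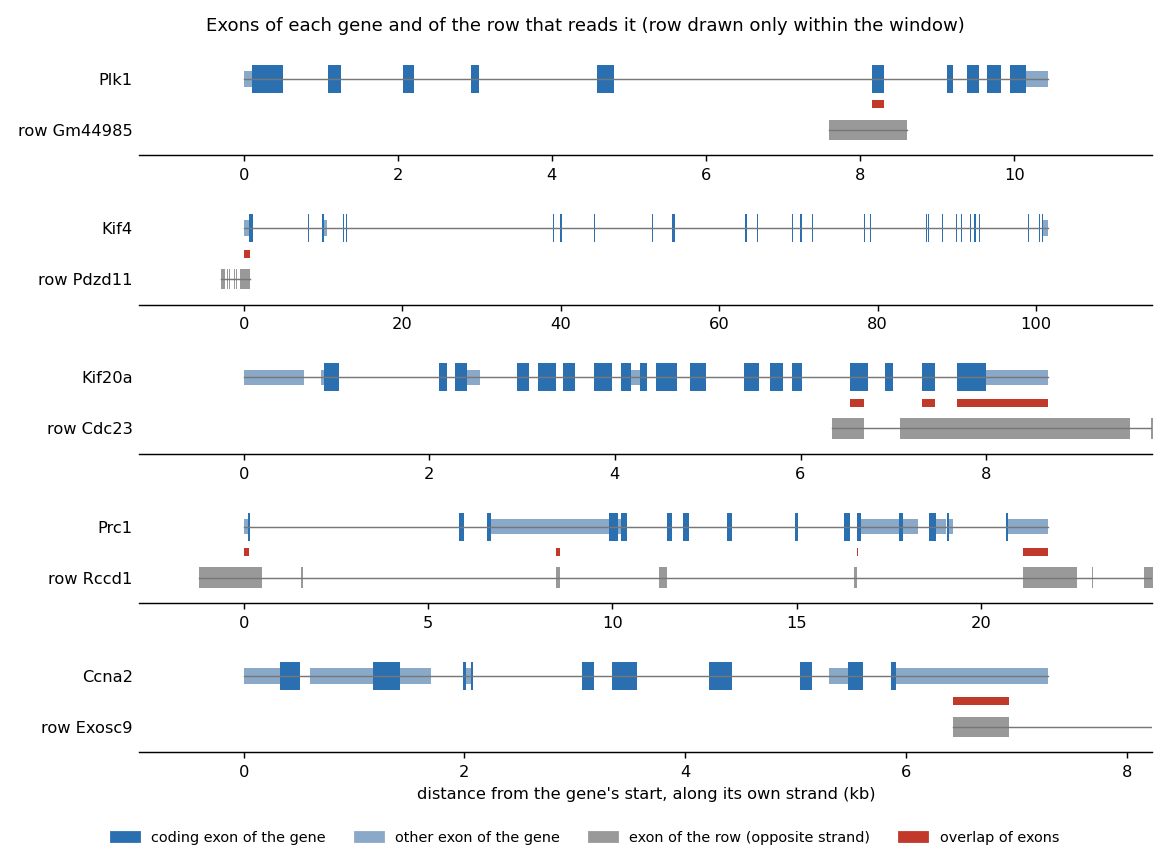
Exons of each gene (coding in dark blue, other in light blue), exons of the row on the opposite strand (grey) and the overlap of both (red), against the distance from the gene's start in kb. The overlap is at the beginning of Kif4, in an inner exon of Plk1, and toward the end of Kif20a, Prc1 and Ccna2, with smaller pieces along Prc1.

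Promoter windows are shown because genes of this class are known to be timed through a promoter element. Only letters were matched here, and neither binding nor function was examined. RefSeq windows (GRCm38.p6) run from 250 bp before to 50 bp after a start site, and were matched for Plk1, Prc1 and Kif4. Kif20a and Ccna2 were not matched. Capitals mark the 2 motifs searched on both strands, the CHR letters TTTGAA and the CCAAT box, which reads ATTGG where it lies on the other strand. The motifs do not overlap in these windows.
Plk1, chr7:122159185-122159484, plus strand: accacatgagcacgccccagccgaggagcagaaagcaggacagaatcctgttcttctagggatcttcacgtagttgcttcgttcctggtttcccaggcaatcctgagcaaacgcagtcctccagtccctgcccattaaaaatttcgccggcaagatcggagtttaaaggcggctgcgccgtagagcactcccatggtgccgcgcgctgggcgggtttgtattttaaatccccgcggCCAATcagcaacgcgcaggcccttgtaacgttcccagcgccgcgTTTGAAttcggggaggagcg
Prc1, chr7:80294201-80294500, plus strand: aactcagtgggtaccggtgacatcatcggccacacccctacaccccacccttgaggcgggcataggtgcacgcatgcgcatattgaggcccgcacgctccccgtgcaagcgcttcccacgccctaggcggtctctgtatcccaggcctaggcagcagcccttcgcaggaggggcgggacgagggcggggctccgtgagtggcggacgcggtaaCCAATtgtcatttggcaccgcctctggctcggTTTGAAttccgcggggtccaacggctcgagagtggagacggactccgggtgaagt
Kif4, chrX:100625815-100626114, plus strand: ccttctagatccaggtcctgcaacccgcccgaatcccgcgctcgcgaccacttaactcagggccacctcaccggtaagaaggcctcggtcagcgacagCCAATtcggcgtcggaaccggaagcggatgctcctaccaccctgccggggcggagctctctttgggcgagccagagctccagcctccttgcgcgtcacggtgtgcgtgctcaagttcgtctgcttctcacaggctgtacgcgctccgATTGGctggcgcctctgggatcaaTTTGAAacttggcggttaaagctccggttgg

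All 3 windows held TTTGAA within 50 bp of the start site, at positions 31 to 36 in Plk1, -5 to 1 in Prc1 and 20 to 25 in Kif4, counted from 1 at the start site with no position 0. A CCAAT box stood upstream at -14 to -10 in Plk1, -37 to -33 in Prc1, and -152 to -148 and, inverted, -5 to -1 in Kif4. Of all 27025 genes with a window, 20.2% held TTTGAA on either strand, 41.1% held CCAAT and 8.97% held both. Within 50 bp of the start site TTTGAA stood in 5.72% of genes. Of the 96 mitosis genes listed that had a window, 50.0% held TTTGAA and 42.7% held it within 50 bp of the start site. Many of these were not tested here. Of the 19 that were tested, outside the 5 genes, 26.3% held TTTGAA. Of all 1971 tested genes with a window 14.2% did. The Kif4 window lies inside the stretch its row counts: of the 832 bp, 328 bp lie before the RefSeq start site at 100626065 and 504 bp after it.

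Counts in the rows of both strands show why the opposite strand was read. Only 10.3% of rows have exons facing those of a protein-coding gene, yet they took 87.4 to 88.6% of each library's counts. For the 5 genes the opposite-strand row was the fuller one in all 9 libraries. The row named Plk1 held 0 to 3 counts per library, whereas Gm44985 held 857 to 1416. The row named Prc1 held 23 to 42 counts and Rccd1 2706 to 4351. The gap was smaller for the other pairs, with 323 to 453 counts in the row Ccna2 against 2969 to 4223 in Exosc9, and 828 to 985 in the row Kif20a against 3869 to 6080 in Cdc23. It was smallest for Kif4, whose own row held 174 to 235 counts where Pdzd11 held 301 to 420. By the same reading, the rows named Prc1, Kif4, Kif20a and Ccna2 report Rccd1, Pdzd11, Cdc23 and Exosc9. The strand setting of the counting is not given in the sources used here, so the reading rests on these values.

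**Figure D2:**
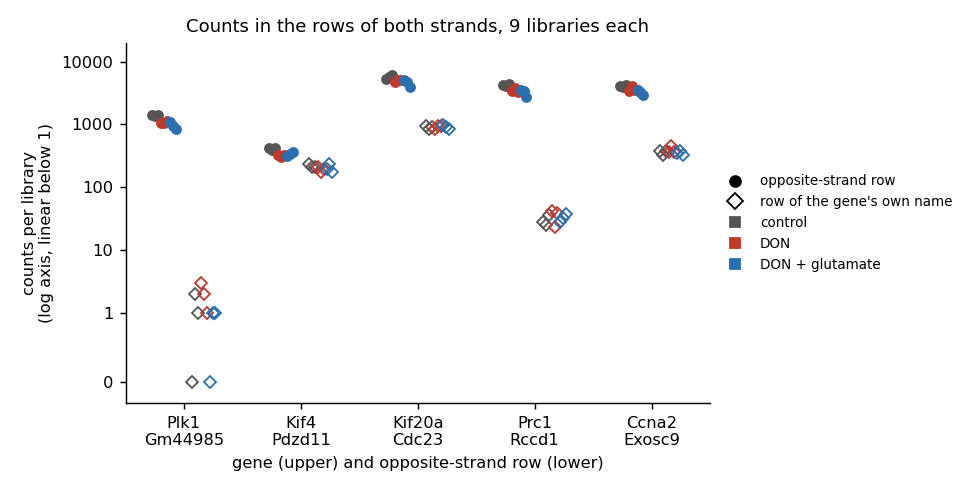
Raw counts per library (log axis, linear below 1) in the row that reads each gene from the opposite strand (filled circles) and in the row of the gene's own name (open diamonds), coloured by group. Filled circles lie above open diamonds for all 5 genes, from 0 to 3 against 857 to 1416 counts for Plk1 to 174 to 235 against 301 to 420 for Kif4.

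Levels below are CPM of the tested genes after TMM scaling, which corrects for library composition, and differences are log2 differences from edgeR's quasi-likelihood fit with their standard errors (SE). Plk1, the kinase, stood at 1501, 1458 and 1548 CPM in the control libraries, 1094, 1149 and 1199 in DON, and 1167, 993.4 and 1068 in DON plus glutamate. Every treated library was below every control library, and both treated groups overlapped each other. Plk1 was 1.31-fold lower than control in DON (log2 -0.39 ± 0.07, SE, n = 3 libraries a group) and 1.40-fold lower in DON plus glutamate (-0.48 ± 0.08). Plk1 was the member with the greatest distance from control under glutamate, and 2.78% of all genes tested lay at or below its value there. For the other members that share ran from 6.22% (Prc1) to 16% (Kif4). In DON against control it ran from 7.16% (Plk1) to 21% (Ccna2).

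Kif4, the kinesin that limits midzone length, stood at 449.7, 418.4 and 456.9 CPM in control, 348.2, 325.5 and 337.8 in DON, and 335.4, 356.2 and 454.7 in DON plus glutamate. The DON libraries were all below control. Of the glutamate libraries 2 lay near the DON level, and replicate 3, the library with the fewest counts, lay among the controls. The log2 difference from control was -0.39 ± 0.10 in DON and -0.21 ± 0.10 in DON plus glutamate. Without DON plus glutamate replicate 3 the latter was -0.35, and the difference between the treated groups went from 0.17 ± 0.10 to 0.03. Without DON plus glutamate replicate 1, the lowest of that group, they were -0.12 and 0.26.

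Kif20a, the other kinesin, had the most counts: 5714, 6106 and 6646 CPM in control, 4983, 5513 and 5352 in DON, and 5448, 4990.2 and 4820 in DON plus glutamate. Every treated library was again below every control library, but the lowest control at 5714 CPM was close to the highest DON library at 5513 CPM. The log2 difference from control was -0.22 ± 0.07 in DON and -0.28 ± 0.07 in DON plus glutamate. Without control replicate 3, the highest of the 9 libraries, these differences were -0.15 and -0.21.

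Prc1, the microtubule bundler that Kif4 binds, stood at 4569.7, 4442 and 4756 CPM in control, 3611, 4055 and 3480.0 in DON, and 3676, 3648 and 3371 in DON plus glutamate. Both treated groups lay below the controls without overlap. It was 1.24-fold lower in DON (log2 -0.30 ± 0.07) and 1.29-fold lower in DON plus glutamate (-0.36 ± 0.07).

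Ccna2, the cyclin, stood at 4335, 4332 and 4616 CPM in control, 3536, 4389 and 3713 in DON, and 3778, 3434 and 3699 in DON plus glutamate. DON replicate 2 lay between the controls, so that group overlapped them, whereas all 3 glutamate libraries were below them. The log2 difference was -0.19 ± 0.08 in DON and -0.28 ± 0.08 in DON plus glutamate. Without DON replicate 2 the former was -0.28, and without DON replicate 1, the lowest, it was -0.12.

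**Figure D3:**
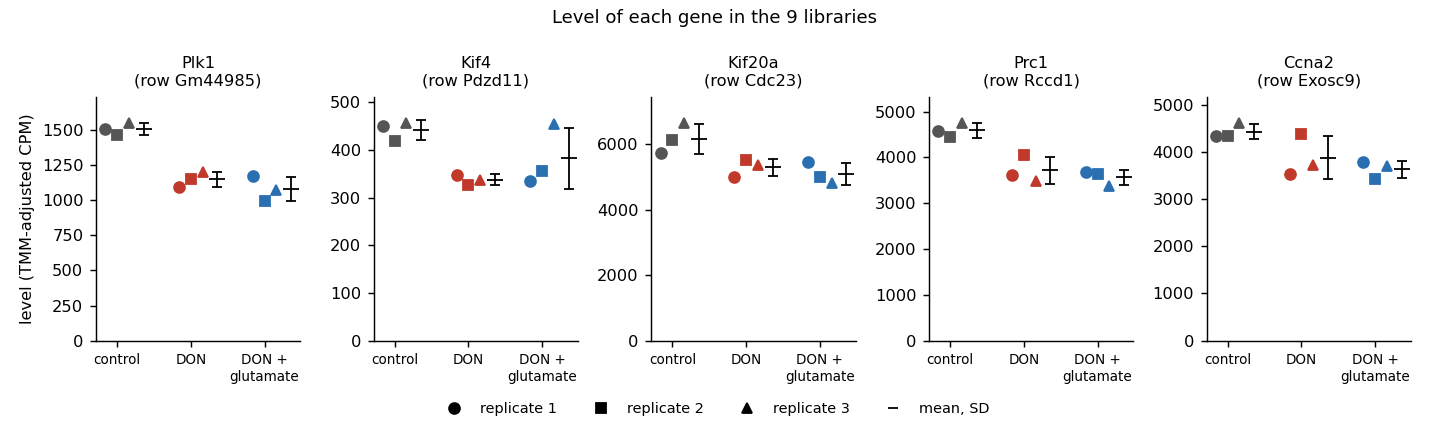
Level of each gene in TMM-adjusted CPM, 1 point per library with its replicate number as the shape, and the mean with its SD (n = 3) beside each group; the axes start at 0. Treated libraries lie below all controls for Plk1, Kif20a and Prc1, while DON replicate 2 reaches 4389 CPM for Ccna2 and DON plus glutamate replicate 3 reaches 454.7 CPM for Kif4.

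The spread between replicates was wider than counting error in all 3 groups for all genes but Kif4, where it was narrower in control and in DON. Counting error averaged 1.33 to 1.49% of the value for Kif20a and 4.96 to 5.61% for Kif4, by group. The coefficient of variation between replicates was 5.15 to 7.60% for Kif20a and 2.98 to 8.07% for Plk1. It reached 11.6% for Ccna2 in DON and 16.7% for Kif4 in DON plus glutamate, the 2 groups with a library apart from the others. Per kb of counted overlap, control levels were 9631 ± 287 CPM for Plk1 (SD, n = 3), 8682 ± 320.0 for Ccna2, 5038 ± 173 for Prc1, 4843 ± 368 for Kif20a and 530.8 ± 24.6 for Kif4. The means of Prc1 and Kif20a differed by less than the SD of Kif20a and by more than that of Prc1. These per-kb levels come from different parts of each gene, and reads that reach beyond a short overlap raise them most for Plk1. Any intron reads counted by the rows of Plk1, Prc1 and Kif20a raise them too, since only exon overlap was divided by.

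Against control, 4 of the 5 genes passed an adjusted p of 0.05 in DON (all but Ccna2) and 4 in DON plus glutamate (all but Kif4), each time lower. Of all 2444 genes tested, 11.6% passed in DON against control, 6.46% as lower and 5.11% as higher. In DON plus glutamate against control 5.36% passed, 2.74% as lower and 2.62% as higher. Since these comparisons chose the genes, nothing is read from the counts. The same 4 were the ones whose libraries did not overlap in each comparison, where 14.9% of all genes lay wholly below control in DON and 13.9% wholly above, with 12.1% and 11.8% in DON plus glutamate. The median of the 5 log2 differences was -0.30 in DON and -0.28 in DON plus glutamate, beside medians of 0.00415 and 0.000749 over all genes. With library totals in place of TMM scaling, 116 of 268 changed genes were lower in DON (43.3%) where the TMM fit had 158 of 283 (55.8%), and 51 of 133 (38.3%) against 67 of 131 (51.1%) in DON plus glutamate. Both comparisons share the control libraries.

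Calls near the threshold moved with single libraries and settings. In DON against control, Kif20a was not called with DESeq2 size factors, library totals, the stricter filter, the replicate block or all rows tested, nor with control replicate 2 or 3, any DON replicate, or replicate 2 of DON plus glutamate left out. Kif4 was not called without control replicate 3, Prc1 was not called without DON replicate 3, and Ccna2 was called without DON replicate 2. In DON plus glutamate against control, Kif20a and Ccna2 were not called without control replicate 2 or 3 or DON plus glutamate replicate 2. Ccna2 was also not called without control replicate 1. Without DON plus glutamate replicate 3, Kif4 was called there and Kif20a was not. Plk1 was called against control in both comparisons in every setting except an overlap of at least 200 bp, which its row does not reach. The comparisons with control chose the genes, so a call that stays is no support for a gene. These calls are a description only.

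Adding glutamate moved these genes little against DON alone. The log2 difference was -0.09 ± 0.08 for Plk1, -0.06 ± 0.07 for Prc1, -0.05 ± 0.07 for Kif20a, -0.09 ± 0.08 for Ccna2 and 0.17 ± 0.10 for Kif4. In all 5 genes the libraries of the 2 groups overlapped, beside 6.59% of all genes wholly below DON and 5.32% wholly above it, and 4 of the 5 differences were below 0. Without DON replicate 2 only Plk1 and Kif20a were below 0, with Ccna2 at 0.00093 and Prc1 at 0.0043. By edgeR's quasi-likelihood test 0 of 5 passed, 0 had an unadjusted p under 0.05, and DESeq2 and limma voom called 0. Over all genes 1 of 2444 passed (0.0409%), and 7.12% had an unadjusted p under 0.05. The DON libraries took part in choosing the genes, so these values too are a description.

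**Figure D4:**
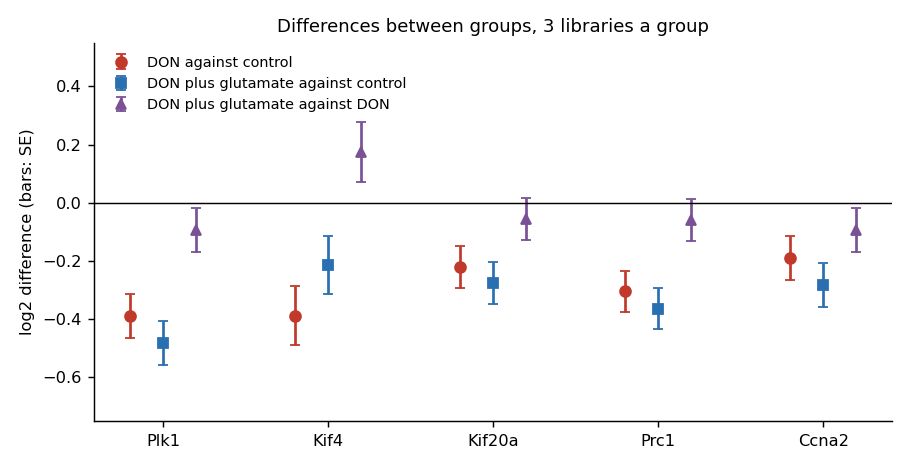
Log2 difference of each gene between groups, with SE from the fit of all 9 libraries; 0 is no difference. Both comparisons with control lie below 0 for all 5 genes, from -0.19 to -0.48, and the glutamate comparison lies between -0.09 and 0.17.

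With the group differences included, Plk1, Kif20a, Prc1 and Ccna2 correlated more closely with each other than with Kif4. Over the 9 libraries Pearson's r of log2 CPM was 0.847 to 0.904 for the 6 pairs among Plk1, Kif20a, Prc1 and Ccna2, and 0.391 to 0.594 for the 4 pairs with Kif4. These values hold the group differences that chose the genes. After each group's mean was taken out, r was 0.0868 for Plk1 with Prc1 and 0.479 to 0.681 for the other 5 pairs, while the pairs with Kif4 were at -0.489 to -0.0726. Counting error was widest for Kif4, at 4.96 to 5.61% by group, and its part in these values was not tested. Genes of 1 library share its scaling factor, and these correlations are a description only.

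The genes on the other strand of the same stretches did not pass the test. Rccd1, a chromatin-associated protein, was at log2 0.18 ± 0.24 in DON against control (row Prc1; adjusted p = 0.699). Pdzd11, a PDZ-domain protein, was at -0.21 ± 0.11 (row Kif4; adjusted p = 0.241), with all 3 DON libraries, at 188.2 to 218.4 CPM, below the controls at 227.1 to 251.6 CPM. Cdc23, a subunit of the anaphase-promoting complex, was at -0.01 ± 0.08 (row Kif20a; adjusted p = 0.965), and Exosc9, a subunit of the RNA exosome, at 0.10 ± 0.10 (row Ccna2; adjusted p = 0.609). By edgeR 0 of the 4 passed in any of the 3 comparisons, 0 had an unadjusted p under 0.05, and DESeq2 and voom called 0. Through rows that share exon bases, Kif20a was lower in DON at 5283 ± 272 against 6155 ± 468 CPM (SD, n = 3). Cdc23 stood at 964.4 ± 57.8 CPM in DON and 969.6 ± 56.7 in control. Whether the 2 strands of a stretch differed in their response was not tested.

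A wider list of 117 mitosis genes was compiled with earlier results of these data known. It holds mitotic kinases and phosphatases, kinesins, midzone and spindle proteins, cyclins and their kinases, kinetochore and checkpoint proteins, the anaphase-promoting complex and condensins. Of these 30 were tested, 25 of them outside the 5 genes above. In DON against control 5 of the 25 fell and 0 rose, where 6.46% of all genes fell. The median log2 difference of the 25 was -0.16, beside 0.00415 over all genes, and 21 of the 25 values were below 0.

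The 5 that fell belong to several steps of the cycle. Ccnd1, cyclin D1 of the G1 phase, fell from 2464 ± 58.6 to 1792 ± 93.7 CPM (SD, n = 3; row Oraov1), a log2 difference of -0.46 ± 0.07 (SE; edgeR adjusted p = 2.54e-05). Its 3 DON libraries at 1723 to 1898 CPM lay below the controls at 2428 to 2532 CPM. Cdc25b, a phosphatase that switches on mitotic cyclin-dependent kinase, fell from 619.97 ± 23.2 to 471.3 ± 40.9 CPM (-0.40 ± 0.09; row Spef1; adjusted p = 0.00241). The Cdc25b row overlaps it by only 92 bp. Ncaph2, a condensin II subunit, fell by 0.31 ± 0.08 on the log2 scale (row Sco2; adjusted p = 0.00655), but did not pass without control replicate 2 (0.0581). Its adjusted p ran from 0.00314 to 0.0581 over the alternatives.

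The other 2 rested on fewer libraries or on the settings. Nek2, a centrosomal mitotic kinase, stood at 381.2, 395.6 and 393.5 CPM in control and at 321.9, 102.7 and 308.3 in DON (row Gm38037). All DON libraries were lower, but DON replicate 2 was far below the other 2. The log2 difference was -0.67 ± 0.19 (adjusted p = 0.0201), and without DON replicate 2 it was -0.30 (adjusted p = 0.0748). Nek2 also did not pass without control replicate 2 (0.0986) or 3 (0.0709) or by DESeq2 (0.349), with a range of 2.86e-08 to 0.349. Mis12, a kinetochore protein, was at -0.35 ± 0.11 (row Derl2; adjusted p = 0.0455), and its adjusted p ran from 0.0397 to 0.184. It did not pass without any 1 of the control or DON libraries or without DON plus glutamate replicate 2, nor by DESeq2, with library totals, with either other filter, with the replicate block or with all rows tested. Over the whole list 9 genes fell, and 4 of them were the genes chosen by this comparison (Plk1, Prc1, Kif4 and Kif20a). Without control replicate 2 or without control replicate 3 the whole list had 5. Without DON replicate 1, 7 fell and 1 rose.

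By role, the other members of the list that could be tested were mostly at small or imprecise negative values in DON. Of 4 mitotic kinases and phosphatases outside the 5 genes 2 fell (Cdc25b and Nek2), while Pkmyt1, a kinase that restrains mitotic entry, was at log2 0.19 ± 0.10 without passing. Kif22, a chromosome-arm kinesin, was at -0.51 ± 0.24 with a mean of only 33.7 CPM and did not pass. Of 2 other midzone and spindle genes 0 fell, with Nusap1 at 0.11 ± 0.20 and Tacc3 at -0.03 ± 0.26. Of 2 condensation genes 1 fell (Ncaph2), with Ncapg at -0.09 ± 0.08. Of 6 other cyclins and cyclin-dependent kinases 1 fell, with Ccnd2 at -0.10 ± 0.07, Ccnd3 at -0.16 ± 0.08 and Ccne2 at -0.08 ± 0.11. Cdk4 was at -0.43 ± 0.25, and Cdk6 was above 0 at 0.21 ± 0.24. Of 4 kinetochore genes 1 fell, and Sgo2a, a shugoshin that guards centromeric cohesion, was at -0.24 ± 0.08 (adjusted p = 0.0514). Sgo2a passed with no filter on low counts (0.0219), by voom (0.0445), with an overlap of at least 200 bp (0.0473) and without DON replicate 2 (0.0130). Of 6 genes of the anaphase-promoting complex 0 passed by edgeR, DESeq2 or voom and 1 had an unadjusted p under 0.05, Ube2s, an E2 enzyme of that complex, at -0.73 ± 0.29 with means of 26.0 CPM in control and 15.6 in DON. Over all genes 23.9% had such a p in DON against control and 18.9% in DON plus glutamate against control.

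**Figure D5:**
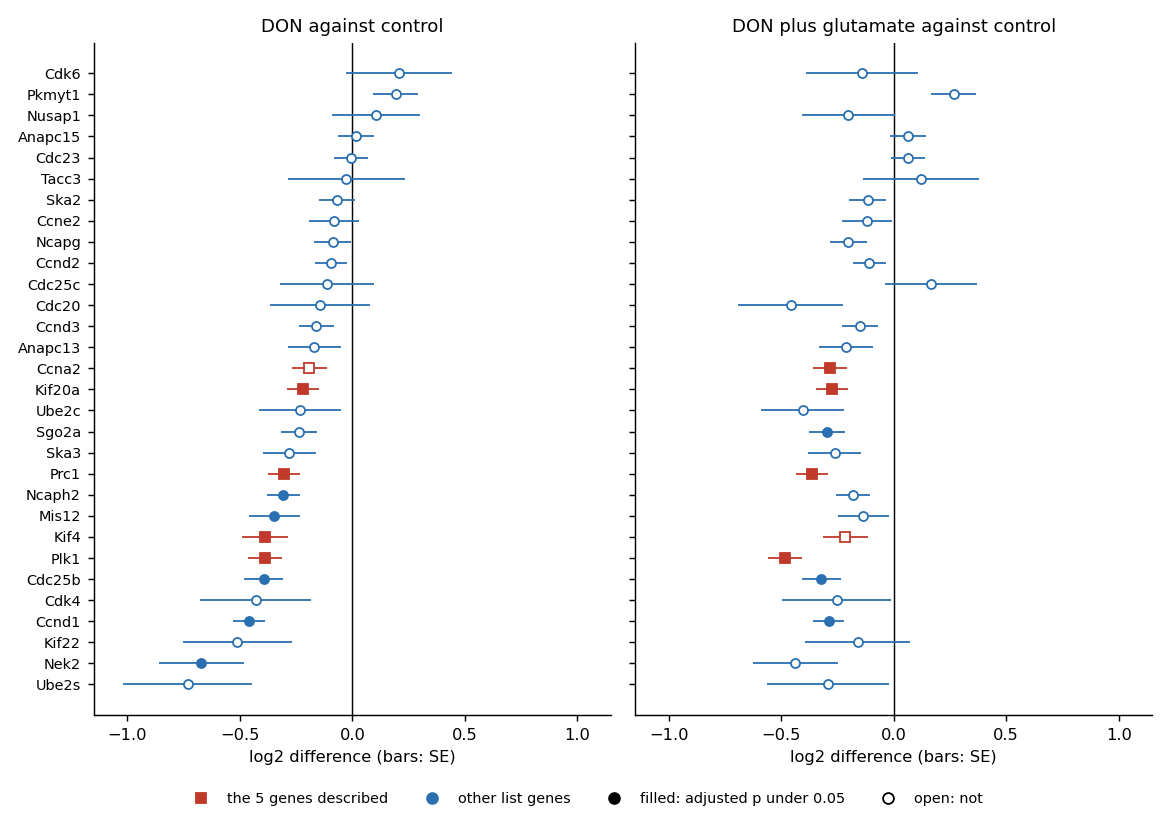
Log2 difference with SE of the 30 mitosis genes tested, in DON against control (left, which sets the order) and DON plus glutamate against control (right); squares are the 5 genes described, circles the others, and filled symbols passed an adjusted p of 0.05. No gene passes to the right of 0 in either panel. To the left 9 pass in DON, 5 of them circles, and 7 in DON plus glutamate, 3 of them circles. Of all genes tested 6.46% and 2.74% passed as lower. The squares were chosen by these comparisons.

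In DON plus glutamate against control 3 of the 25 other mitosis genes fell and 0 rose, where 2.74% of all genes fell, with a median log2 difference of -0.18 and 20 of 25 values below 0. They were Ccnd1 at -0.29 ± 0.07 (SE; edgeR adjusted p = 0.00972), Cdc25b at -0.32 ± 0.09 (0.0215) and Sgo2a at -0.30 ± 0.08 (0.0238). The Ccnd1 call ended without control replicate 3 (0.0612) or DON plus glutamate replicate 2 (0.0866), in a range of 0.00113 to 0.0866. That of Cdc25b ended without control replicate 1 (0.0920) or 2 (0.104) or DON plus glutamate replicate 2 (0.139), in a range of 0.0128 to 0.139. That of Sgo2a ended without control replicate 2 (0.0625) or 3 (0.176) or DON plus glutamate replicate 1 (0.0871) or 2 (0.107), and with library totals (0.0511), in a range of 0.00288 to 0.176. Over the whole list 7 genes fell, 4 of them from the 5 genes described above. The count was 3 without control replicate 2, 3 without control replicate 3 and 2 without DON plus glutamate replicate 2. Against DON alone 0 of the 30 passed by edgeR, DESeq2 or voom, 1 had an unadjusted p under 0.05, and the median of the 25 was 0.05.

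DNA replication genes did not pass. Of 48 DNA replication genes 13 were tested, and by edgeR, DESeq2 and voom 0 passed in any comparison, with 0 at an unadjusted p under 0.05. Their median log2 difference was -0.03 in DON and 0.08 in DON plus glutamate against control. The fuller rows among them were Fen1, a flap nuclease of lagging-strand synthesis (-0.12 ± 0.07 in DON; 3562 CPM), Chaf1a, a histone chaperone of the fork (-0.05 ± 0.07; 2066 CPM), and Gins2, a helicase subunit (-0.04 ± 0.08; 721.6 CPM). Whether replication and mitosis genes differed in their response was not tested. Of 22 regulators of cell cycle transcription 4 were tested (E2f7, E2f8, Rb1 and Rbl2), and 0 passed in any comparison by the 3 tools. Rb1, the retinoblastoma protein that restrains E2F, was at 0.33 ± 0.11 in DON (adjusted p = 0.0568), the 1 of the 4 with an unadjusted p under 0.05 there. It passed with library totals (0.0354), with the stricter filter (0.0476) and with DON replicate 1 (0.0356) or replicate 1 of DON plus glutamate (0.0398) left out, in a range of 0.0354 to 0.193. Of 18 arrest genes 2 were tested, and Gadd45a, a growth arrest gene, rose from 324.8 ± 41.9 CPM in control to 1075 ± 39.9 in DON (SD, n = 3). It stood at 1030.2 ± 70.3 CPM in DON plus glutamate. Over all genes 5.11% rose in DON. The other arrest gene tested, Cdkn1c, which encodes a cyclin-dependent kinase inhibitor, did not pass at log2 -0.45 ± 0.23 (SE) in DON and -0.36 ± 0.23 in DON plus glutamate, with all treated libraries below the controls in both.

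Similar shares of genes with and without TTTGAA in the promoter window were called lower in DON. Of 276 tested genes with the motif, outside the 5 described, 6.16% fell in DON, and of 1692 without it 5.85% fell. In DON plus glutamate the shares were further apart, at 4.35% and 2.13%. The median log2 difference in DON was 0.00653 with the motif and 0.00993 without it. The letters were taken anywhere in the window on either strand, which includes matches that are no CHR. Of tested genes with a window 14.2% held them so, and 4.26% within 50 bp of the start site. The shares therefore cannot speak to the CHR itself, and no test was made of them.

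By their level across the 9 libraries, none of the 5 genes most like the mean of the described genes was on the mitosis list. Among 1787 other genes with a mean of at least 50 CPM, Pearson's r with the mean of the 5 scaled profiles was highest for Sfrp2, a secreted Wnt modulator (r = 0.975; row Gm26771). Next were Hmgcs1, an early enzyme of cholesterol synthesis (0.964), Lxn, a carboxypeptidase inhibitor (0.938), Serpinb9b, a serpin (0.936), and Ctnnb1, beta-catenin (0.935; row Ulk4). Sfrp2 stood at 2589 to 3076 CPM in control, 2036 to 2451 in DON and 1941 to 2174 in DON plus glutamate. Ctnnb1 stood at 6528 to 7149 CPM in control and 5836 to 5858 in DON. Kif20a was most like Tspan31 (0.961), Tor1aip1 (0.950) and Ccnd3, a D-type cyclin (0.949). Kif4 was most like Rbm3 (0.957), Suv39h1 (0.945) and Pde5a (0.930), and Plk1 most like Mtus1 (0.967). Prc1 was most like Tmem140 (0.974), and Ccna2 most like Kbtbd4 (0.973) and Crat, a carnitine acetyltransferase (0.963). Likeness over 9 libraries in 3 groups holds the group differences, and the best of 1787 candidates is high by selection.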

How the data were processed

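RNA of 9 libraries was sequenced by BGI on a DNBSEQ platform, per the labels' protocols. STAR, HTSeq and mm10 are named without versions, per the submitters' processing notes. The authors deposited integer read counts for each annotated gene, not normalized. The strand setting is not given in the sources used here.

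Of 53379 rows, 53274 matched GENCODE M21. A row was read as the coding gene it faces where its exons share 50 bp or more with that gene's exons and touch no second such gene. Where several rows face a gene, the one with the highest mean count stood for it. This gave 4115 genes, of which 2444 passed filterByExpr. The test was edgeR's quasi-likelihood test (version 4.0.16, R 4.3.3, TMM scaling, two-sided), in 1 fit of 3 groups with 6 residual degrees of freedom. A gene was called at a p under 0.05 after Benjamini-Hochberg adjustment over all genes tested. SEs are those implied by the test statistic. The fit was also run on simulated counts, but how well it recovers differences as small as those described is not reported here. The 5 genes and the lists were chosen with earlier results of these data known. The text names the 5 genes, list genes, and the genes most like them by Pearson's r of log2 CPM (prior count 2). All lists are reported. Alternatives were DESeq2 1.42.0 size factors and Wald test, library totals, 2 filters, limma 3.58.1 voom, the replicate block, all rows, 200 bp of overlap, a fit of the compared pair of groups alone, and leaving out 1 library at a time. No 2 replicates agreed within sampling noise (chi-square per degree of freedom 2.14 to 3.86).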

Additional observations from a re-analysis of the deposited data

How the results depend on the processing

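The log2 differences of the 5 genes against control stayed below 0 in all 188 values from the 19 alternatives. Such differences chose the genes, so their sign was largely set in advance and is no support for them. All 282 values of the 5 genes, over the 3 comparisons, moved by less than the SD between replicates of the groups compared. Where 1 of 3 libraries is left out this was near certain, since that SD includes the library. It is therefore no measure of how far a value rests on 1 library. Over libraries left out in turn, the count of changed genes in DON against control (283) ran from 142 to 292, and was 142 without control replicate 2, 178 without DON replicate 3, 180 without DON replicate 2 and 186 without control replicate 1. In DON plus glutamate against control (131) it ran from 73 to 154, with 73 without DON plus glutamate replicate 2, 77 without control replicate 3 and 83 without control replicate 2. Against DON alone (1) it ran from 0 to 3, and was 4 with no filter on low counts and 7 with all rows tested. Mitosis genes changed, the 5 chosen genes included, ran from 5 to 9 and from 2 to 8 in the comparisons with control. They were 0 throughout against DON. With 1 library left out, a group has 2 libraries and shares the fitted spread. The replicate block gave 215, 109 and 1 changed genes. Deviations of same-numbered libraries correlated at -0.103 to 0.0726, which gives no sign that the numbers pair the libraries. With 3 libraries a group this cannot exclude pairing. At an overlap of at least 200 bp Plk1 and Cdc25b have no value. The causes of these moves were not tested. Rows of few counts, such as Kif22 and Ube2s, had SEs above the median of all genes (0.127).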
